A study of Saccharomyces cerevisiae S288C with 12 samples.

Results

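The cytosolic ribosomal protein genes of Saccharomyces cerevisiae encode the protein part of the small and the large subunit of the ribosome. They were taken by symbol from the R64 annotation (the sacCer3 build): every nuclear protein-coding gene named RPS or RPL followed by a digit, together with RPP0, RPP1A, RPP1B, RPP2A and RPP2B, which encode the acidic stalk of the large subunit. The rule found 137 of 6002 nuclear protein-coding genes, 56 for the small subunit and 81 for the large subunit, of which 5 are stalk genes. Of these genes 118 form 59 paralogue pairs and 19 are single. They lie on 15 of the 16 chromosomes, with 19 on chromosome IV and none on chromosome I.

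Ribosomal protein genes are among the most heavily transcribed genes of growing yeast and are regulated together. In most of them the general regulatory factor Rap1 binds upstream of the gene and recruits Fhl1 and Ifh1, and the promoter is kept largely free of nucleosomes. Most exist as paralogue pairs left by the ancient genome duplication, and many carry an intron close to the start. Cse4 is the yeast form of the centromeric histone H3 variant CENP-A, which normally marks the centromeres and which is found along the chromosome arms when it is overproduced. Psh1 is a ubiquitin ligase that targets misplaced Cse4 for degradation.

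The data are maps of tagged Cse4 made by chromatin immunoprecipitation and sequencing (ChIP-seq). All strains lacked Psh1 (psh1delta) and expressed Cse4 with a 6His-3HA tag from the GAL promoter, and there was 1 strain for each form of the protein: wild type, K215/216A, in which the lysines at positions 215 and 216 are alanine, and K215/216R, in which they are arginine. Cells were grown in 2% raffinose at 30 °C and given 2% galactose for 2 hours, so every map shows overproduced Cse4 in cells without Psh1. The 6 immunoprecipitated libraries, 2 for each strain, were analysed. The comparisons ask how Cse4 is distributed over these genes, and whether the replacement of lysines 215 and 216 alters that distribution.

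The authors called 3123 to 4822 peaks per library, with a median fold enrichment of 1.43 to 1.66. Depth differed between libraries. The background that could be recovered from the peak values was 59.5 and 126 fragments per base in wild type replicates 1 and 2, 146 and 148 for K215/216A, and 86.2 and 156 for K215/216R. Wild type replicate 1 and K215/216R replicate 1 thus stood apart as the shallow libraries, and results that rest on them are also given after the peaks of every library were thinned to the background of the shallowest one. Thinning matched that background only, and it left 3123 to 3711 peaks per library. The labels do not say whether replicates were separate cultures, so the spread between them may be technical.

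Cse4 peaks were scarce at the ribosomal protein genes ahead of the coding region and inside it, in all 3 strains. They were not scarce behind it, where K215/216A had more of them than the other strains. A gene was called in a strain when a peak overlapped the window by at least 1 bp in both libraries. Over the gene with 500 bp on each side, 37 of 137 genes were called in wild type (27.0%, against 51.6% of all protein-coding genes), 79 for K215/216A (57.7%, against 66.2%) and 50 for K215/216R (36.5%, against 58.9%). Ribosomal protein genes are shorter than the average gene, with a median length of 771 bp against 1200 bp, so this joint window is also shorter (1771 bp against 2200 bp). The share of bases under a peak does not depend on the window length in that way, and it was 4.52% ± 1.58 (SD, n = 2) in wild type against 11.4% ± 3.93 for all genes. The same share was 11.9% ± 0.361 against 14.5% ± 0.371 for K215/216A, and 6.35% ± 1.92 against 12.5% ± 3.80 for K215/216R.

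**Figure D1:**
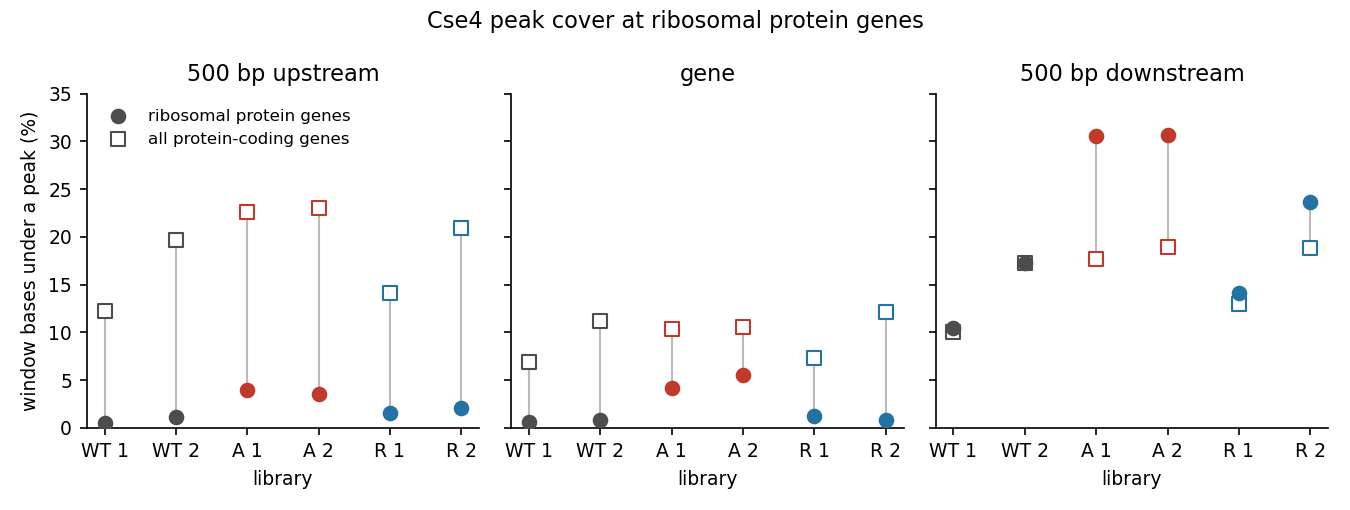
Share of window bases under a Cse4 peak (%, vertical axis) in each of the 6 libraries (horizontal axis; WT is wild type, A is K215/216A, R is K215/216R) for the 500 bp upstream, the gene and the 500 bp downstream. Filled circles are the 137 ribosomal protein genes and open squares all 6002 protein-coding genes; the circles lie far below the squares upstream, and above them downstream in both K215/216A libraries (30.6% and 30.7% against 17.7% and 18.9%).

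Upstream of the ribosomal protein genes, where the promoter lies, peaks were rare in every library. Only 3 of 137 genes had a peak in the 500 bp before the gene in both wild type libraries (2.19%, against 28.3% of all genes). K215/216A had 11 such genes (8.03%, against 43.2%) and K215/216R had 5 (3.65%, against 33.5%). The bases under a peak in this window came to 0.517% and 1.16% in the wild type replicates, 4.0% and 3.57% for K215/216A, and 1.52% and 2.09% for K215/216R. For all genes the same share was 12.2% to 23.0% over the 6 libraries. The highest library of the ribosomal protein genes was thus well below the lowest library of all genes. Most of these genes, 112 of 137, had no upstream peak in any library, against 34.4% of all genes. The genes had more room ahead of them than the average gene, with a median of 634 bp to the next gene upstream against 449 bp. The low counts were found both where the upstream neighbour reads in the same direction (0, 5 and 2 of 60 genes in wild type, K215/216A and K215/216R) and where it is divergent (3, 6 and 3 of 77 genes). For all genes the shares were 28.5%, 43.2% and 34.9% with the first kind of neighbour and 28.0%, 43.3% and 32.2% with the second.

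Around the gene start, averaged in steps of 25 bp over both libraries of a strain, all genes had their highest peak cover just inside the gene. It was 20.9% at 87 bp for wild type, 27.4% at 62 bp for K215/216A and 22.9% at 87 bp for K215/216R. At these same positions the ribosomal protein genes had a cover of 1.45%, 3.65% and 0%. Their lowest cover lay ahead of the gene in wild type and K215/216A, and inside it in K215/216R. Their cover reached 0% at -288 bp for wild type, 1.01% at -163 bp for K215/216A and 0% at 87 bp for K215/216R.

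**Figure D2:**
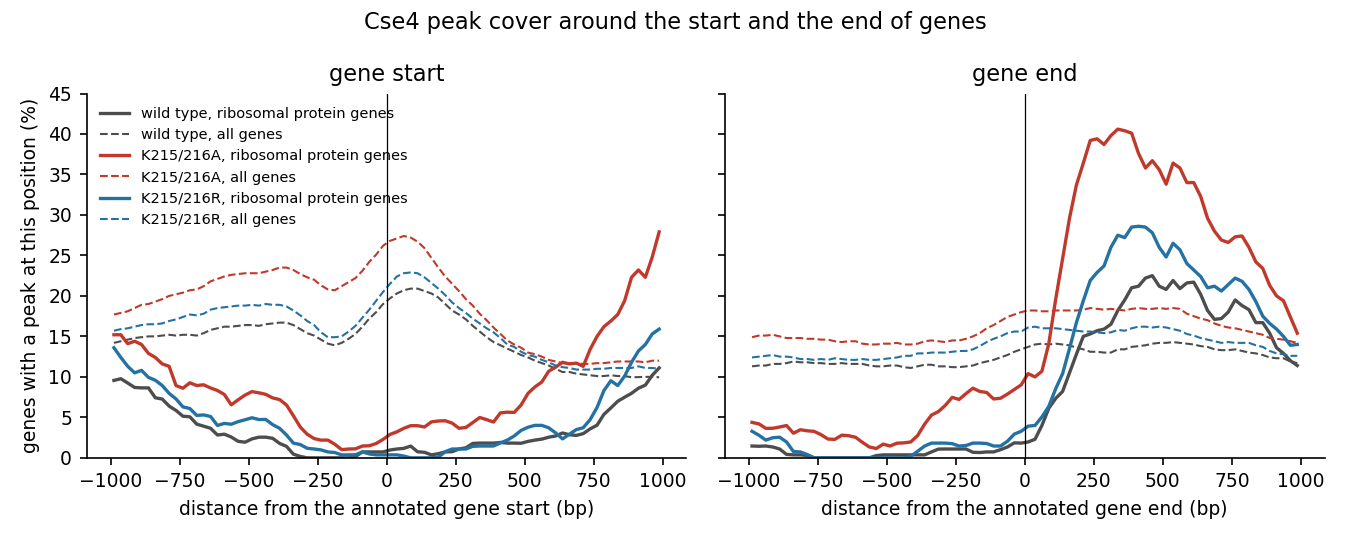
Share of genes with a Cse4 peak at each position (%, vertical axis) by distance in bp from the annotated gene start (left) and gene end (right), as the mean of both libraries of a strain in steps of 25 bp. Solid lines are the 137 ribosomal protein genes and dashed lines all 6002 genes; the solid lines are near 0 around the start and highest behind the gene end, at 22.5% for wild type, 40.6% for K215/216A and 28.6% for K215/216R.

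The exceptions were few. In all, 12 genes had an upstream peak in both libraries of at least 1 strain. Of these, RPS9A and RPS3 had one in all 6 libraries. RPS9A (YPL081W, chrXVI:404950-406044, plus strand) encodes a small-subunit protein with a part in the accuracy of translation. Its upstream peak had an authors' fold of 1.95 and 1.74 for wild type, 2.24 and 2.35 for K215/216A, and 1.91 and 2.09 for K215/216R. The K215/216A libraries were the highest and did not overlap the others. In 5 of the 6 libraries the summit was at the same base, chrXVI:404594, which is 356 bp ahead of the gene start. The exception was wild type replicate 1, with its summit 493 bp ahead. The divergent gene MOT1 begins 866 bp upstream of RPS9A.

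RPS3 (YNL178W, chrXIV:302680-303402, plus strand) encodes a single-copy protein at the entry of the mRNA channel. Its upstream folds were low, 1.27 and 1.37 for wild type, 1.70 and 1.52 for K215/216A, and 1.31 and 1.17 for K215/216R. In wild type replicate 1 and K215/216R replicate 2 these were among the weakest peaks of their libraries (percentiles 1.12 and 1.64 of fold). RPL43B, for a zinc-binding protein of the large subunit, and RPL14B had an upstream peak in 5 libraries each, absent in both cases from the shallow wild type replicate 1. The folds of RPL43B ran from 1.44 to 1.72 and those of RPL14B from 1.31 to 1.55. RPL15B, RPL24A and RPS0A had upstream peaks in 4 libraries, RPL3 and RPL12A in 3, and RPL29, RPL35B and RPL21B in 2. For RPL29, RPL35B and RPL21B both of those libraries were K215/216A. The RPL29 peak had its summit 16 bp inside the gene and also counts as a peak over the gene. RPL3 encodes the protein that reaches into the peptidyl transferase centre, and RPL12A a protein of the stalk base. The 3 genes called upstream in wild type, RPS0A, RPS3 and RPS9A, all belong to the small subunit, and 0 of 81 large-subunit genes were called there. This split rests on the shallow wild type replicate 1. In replicate 2 alone 3 genes of each subunit had an upstream peak, which is 5.36% of the small and 3.70% of the large subunit. In K215/216A the split was 2 of 56 small-subunit and 9 of 81 large-subunit genes.

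Within the genes themselves Cse4 peaks were likewise scarce. In wild type 3 of 137 genes had a peak over the annotated gene in both libraries (2.19%, against 33.1% of all genes). There were 16 for K215/216A (11.7%, against 43.3%) and 5 for K215/216R (3.65%, against 37.3%). The share of gene bases under a peak, which allows for the shorter genes, was 0.570% and 0.827% for wild type against 6.93% and 11.2% for all genes. It was 4.15% and 5.57% for K215/216A against 10.3% and 10.6%, and 1.21% and 0.825% for K215/216R against 7.35% and 12.1%. The K215/216A libraries were above the other 4 libraries, and all 6 were below every library of all genes. No ribosomal protein gene had a peak inside it in all 6 libraries, whereas 24.5% of all genes did.

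Paralogues share much of their coding sequence, and reads that map to more than one place can be lost or split, depending on alignment settings that are not given in the sources used here. The 19 genes without a paralogue were called over the gene in 0 (wild type), 4 (K215/216A) and 1 (K215/216R) of 19 cases, which is 0%, 21.1% and 5.26% against 33.1%, 43.3% and 37.3% of all genes. Genes with a paralogue were called at 2.54%, 10.2% and 3.39%. Upstream, the single genes were called in 1, 3 and 1 of 19 cases (5.26%, 15.8% and 5.26%), against 28.3%, 43.2% and 33.5% of all genes. The share of gene bases under a peak in the single genes was 0.565% ± 0.799 for wild type, 9.36% ± 3.22 for K215/216A and 0.524% ± 0.0695 for K215/216R (SD, n = 2). In wild type and K215/216R this was below the 9.08% ± 3.05 and 9.73% ± 3.37 of all genes, and in K215/216A it overlapped the 10.3% and 10.6% of all genes. Genes with a paralogue had 0.717% ± 0.0974, 4.25% ± 0.703 and 1.08% ± 0.318 in the same order, so in K215/216A the single genes had the higher mean.

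A summit inside the gene in both libraries of a strain was found at 7 genes. RPL15B (YMR121C, chrXIII:509734-510348, minus strand), for a protein in the core of the large subunit, had a peak over the gene in 5 libraries, with folds of 1.61 and 1.71 for wild type, 1.43 in K215/216A replicate 2, and 1.42 and 1.45 for K215/216R. K215/216A replicate 1 had none inside the gene. RPL19A, whose protein bridges both subunits, had a peak over the gene in all 4 mutant libraries but in no wild type one, with folds of 1.31 to 1.58. RPL29 had one in 3 libraries, which in K215/216A was the same peak that was counted upstream. RPL43B had one in 3 libraries as well, at 1.35 and 1.66 for K215/216A and 1.59 in K215/216R replicate 1. For RPL22B, RPL3 and RPS14B the gene held a peak in both K215/216A libraries and in no other. The folds were 1.45 and 1.46 for RPL22B, 1.19 and 1.55 for RPL3, and 1.41 and 1.16 for RPS14B.

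Behind the ribosomal protein genes the picture differed. In the 500 bp after the gene end, 33 of 137 genes were called in wild type (24.1%), close to the 22.6% of all genes. In K215/216A 76 were called (55.5%, against 33.3%), and in K215/216R 47 (34.3%, against 29.6%). The bases under a peak were 10.5% and 17.3% in the wild type replicates against 10% and 17.3% for all genes. They were 30.6% and 30.7% for K215/216A against 17.7% and 18.9%, and 14.1% and 23.6% for K215/216R against 13.0% and 18.8%. Both K215/216A libraries were above all other libraries, with no overlap. K215/216R replicate 2 was the deepest library of all (156 fragments per base) and had a lower downstream share than the K215/216A libraries (146 and 148). The part of depth in the difference between strains was not tested beyond the thinning.

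After thinning to the lowest background the downstream share of bases was 10.5% and 15.5% for wild type, 28.0% and 27.0% for K215/216A, and 12.8% and 20.8% for K215/216R. For all genes the thinned shares were 10% and 14.5%, 14.0% and 15.4%, and 11.9% and 15.2%. At the ribosomal protein genes both K215/216A libraries stayed above all other libraries, while wild type and K215/216R overlapped before and after thinning. For all genes K215/216A overlapped K215/216R before and after thinning, and overlapped wild type only after it. The wild type replicates differed. With replicate 2 alone, 55 of 137 genes had a downstream peak (40.1%, the same share as for all genes), and with replicate 1 alone 37 (27.0%, against 24.9%). After thinning replicate 2 still had 50 (36.5%, against 33.3%). Before thinning, single K215/216A libraries had 85 each (62.0%, against 39.8% and 42.2%), and single K215/216R libraries 48 (35%, against 32.4%) and 71 (51.8%, against 42.8%). Thinned, the K215/216A libraries had 75 and 73 (54.7% and 53.3%, against 30.2% and 33.2%). The thinned K215/216R libraries had 43 and 60 (31.4% and 43.8%, against 29.4% and 33.7%).

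The downstream cover was highest some way past the gene end. In K215/216A it peaked at 40.6% of the genes 337 bp behind the gene end, in K215/216R at 28.6% at 412 bp, and in wild type at 22.5% at 462 bp. All genes stayed between 11.1% and 18.5% within 1000 bp of the gene end in every strain. The annotated gene end is the end of the coding region, so part of this stretch is the untranslated end of the transcript. Of the distinct peaks in the downstream windows, 52 of 85 in K215/216A replicate 1 and 52 of 86 in replicate 2 had their summit between genes, and 30 and 29 had it in the next gene. The downstream peaks were of ordinary strength for their library, with a median percentile of fold of 44.4 to 68.2 over the 6 libraries. Their local background, relative to that of the genome, had a median of 1.13 to 1.21, against 1.2 to 1.27 for all peaks.

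The downstream window of a gene can be the promoter of the next one, which was examined by the direction of the neighbour. Where the next gene reads the same way, its promoter faces the ribosomal protein gene. Among 65 such genes 22 were called downstream in wild type, 43 for K215/216A and 30 for K215/216R, which is 33.8%, 66.2% and 46.2%. All genes with such a neighbour gave 29.7%, 43.6% and 36.8%. Where the next protein-coding gene converges, its own promoter lies at its far end. Promoters of noncoding genes were not examined. Beside a convergent neighbour 11, 33 and 17 of 72 genes were called, which is 15.3%, 45.8% and 23.6%. For all genes with a convergent neighbour the shares were 16.2%, 23.8% and 23.1%. The high share in K215/216A was thus present beside both kinds of neighbour, and in wild type the shares were near those of all genes in both. The median distance to the next gene was 372 bp, against 305 bp for all genes. With at least 500 bp behind the gene, 7, 16 and 11 of 28 genes were called beside a neighbour in the same direction (25%, 57.1% and 39.3%, against 28.2%, 43.2% and 36.0% of all genes). Beside a convergent neighbour at that distance 1, 6 and 1 of 11 genes were called (9.09%, 54.5% and 9.09%, against 14.5%, 29.2% and 27.5% of all genes). With this much room, K215/216A alone was above all genes beside a convergent neighbour, and wild type was below all genes beside either kind.

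RPL29 (YFR032C-A, chrVI:223258-223437, minus strand), for a small protein of the large subunit that yeast can live without, had the highest mean fold downstream among the genes called in all 6 libraries. The fold was 3.16 and 2.72 for wild type, 2.12 and 2.90 for K215/216A, and 3.29 and 3.05 for K215/216R. K215/216A replicate 1 was the lowest and K215/216R replicate 1 the highest. Both K215/216R libraries were above both K215/216A libraries, and wild type overlapped each mutant. The summits lay 262 to 346 bp behind the gene, and the peak ran on past the window, over chrVI:222319-223247 in wild type replicate 1. These were among the strongest peaks of their libraries, at percentiles of fold from 97.1 to 99.9.

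RPL43B (YJR094W-A, chrX:608305-608858, plus strand) had folds of 2.64 and 2.85 for wild type, 2.87 and 2.83 for K215/216A, and 2.74 and 2.98 for K215/216R. The values lay close together and the strains overlapped. All 6 libraries had the summit at chrX:609401, which is 543 bp behind the gene and just outside the window, ahead of SFC1. RPL14B (YHL001W, chrVIII:104277-105091, plus strand) was the one ribosomal protein gene beside a space between chromosome arms that holds a centromere. That space of 963 bp lies between RPL14B and OSH7. Its downstream folds were 1.35 and 1.98 for wild type, 3.12 and 2.80 for K215/216A, and 2.58 and 1.67 for K215/216R. The K215/216A libraries were the highest and did not overlap the others, while wild type and K215/216R overlapped.

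RPL36B, RPS4A, RPL19B, RPL15B and RPL4A were the next of the 29 genes with a downstream peak in all 6 libraries. RPL36B had folds of 1.94 and 1.77 for wild type, 2.11 and 2.34 for K215/216A, and 2.21 and 2.37 for K215/216R. Both mutants were above wild type. In K215/216A this was a peak of 2109 and 2022 bp with its summit beyond the window, whereas the other libraries had peaks of 277 to 387 bp with the summit 343 or 344 bp behind the gene. RPS4A had 2.24 and 2.15 for wild type, 1.56 and 1.65 for K215/216A, and 2.09 and 2.85 for K215/216R, so here K215/216A was the lowest. RPL19B had 2.42 and 1.77 for wild type, 1.55 and 1.82 for K215/216A, and 2.03 and 1.96 for K215/216R. RPL15B had 2.53 and 1.88, 1.72 and 1.78, and 1.80 and 1.82 in the same order. RPL4A, whose protein lines the exit tunnel, had 2.1 and 1.6, 1.82 and 2.15, and 1.59 and 2.03. At RPL19B both K215/216R libraries were above both K215/216A libraries and wild type overlapped each mutant. The strains overlapped for RPL4A, and for RPL15B both wild type libraries were the highest.

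**Figure D3:**
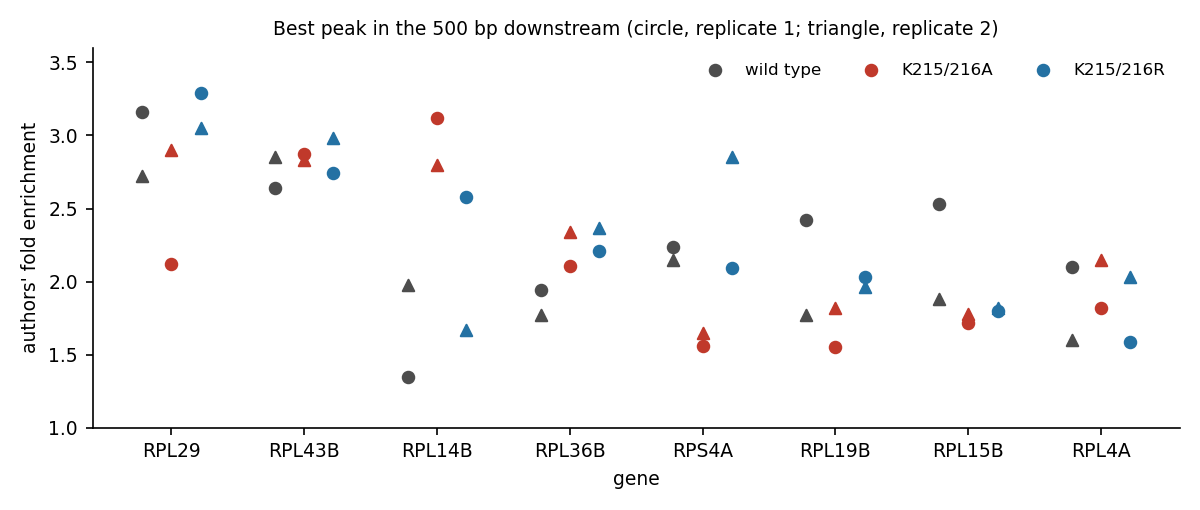
Authors' fold enrichment (vertical axis) of the best peak in the 500 bp downstream of the 8 genes with the highest mean fold among those called in all 6 libraries. Circles are replicate 1 and triangles replicate 2, coloured by strain; K215/216A is the highest for RPL14B and the lowest for RPS4A, and no strain is the highest throughout.

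The strains differed in how many ribosomal protein genes had a downstream peak. Behind 22 genes a peak was present in K215/216A (both libraries) but absent from wild type (both libraries), against 5.28% of all genes, and behind 0 genes the other way round, against 1.38%. Against K215/216R there were 13 genes with a peak in both K215/216A libraries only (3.05% of all genes) and 0 the other way round (1.72%). The 22 genes are 16.1% and the 13 genes 9.49% of the 137. After thinning the counts were 14 (against 3.80% of all genes) and 9 (against 2.50%), which is 10.2% and 6.57% of the 137. The comparisons of K215/216A with wild type and with K215/216R use the same K215/216A libraries. Without wild type replicate 2, the deeper of its libraries, the first count was 42 (30.7%, against 14.1% of all genes). Without K215/216R replicate 2 the second was 29 (21.2%, against 8.65%), and without K215/216A replicate 1 it was 20 (14.6%, against 6.25%).

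By bases under a peak in the downstream window, both K215/216A libraries were above both wild type libraries at 55 of 137 genes (40.1%), against 14.6% of all genes. The reverse was found at 1 gene, against 4.20%. After thinning these were 40 genes (29.2%, against 10.1%) and 1 gene (against 4.67%). Both K215/216A libraries were above both K215/216R libraries at 42 genes (30.7%, against 10.6%) and below them at 3 (against 5.56%). After thinning these were 32 genes (against 7.70%) and 2 genes (against 5.51%). K215/216R stood closer to wild type. Both of its libraries were above both wild type libraries at 15 genes (against 7.45%) and below them at 3 (against 2.87%), and after thinning these were 10 genes (against 6.26%) and 4 genes (against 3.33%). K215/216A over either of the other strains thus gave a share well above that of all genes, and K215/216R over wild type one nearer to it.

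**Figure D4:**
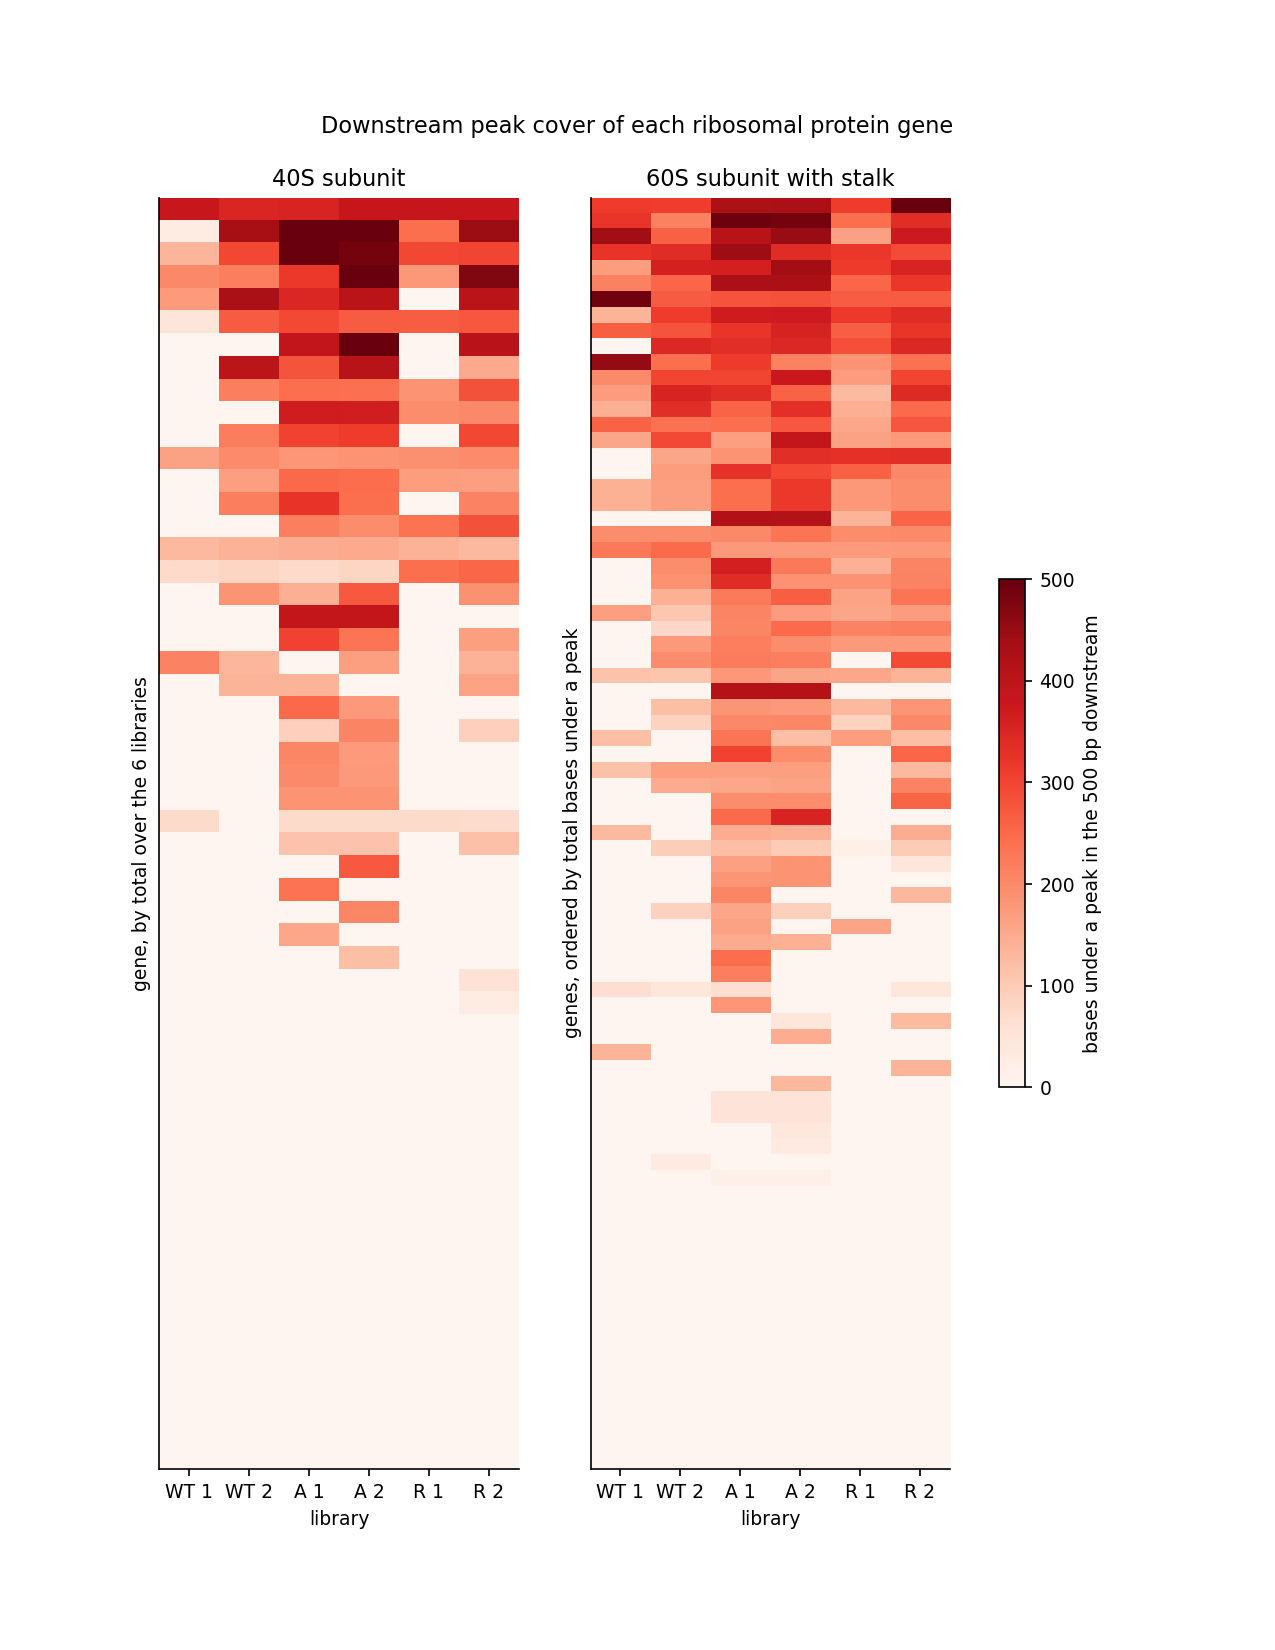
Bases under a peak (colour, 0 to 500) in the 500 bp downstream of each of the 137 ribosomal protein genes (rows, ordered by their total over the libraries) in the 6 libraries (columns; WT is wild type, A is K215/216A, R is K215/216R), with the small subunit on the left and the large subunit with the stalk on the right. The K215/216A columns are filled in more rows than the others, and 38 genes (27.7%, against 42.6% of all genes) have no downstream peak in any library.

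Over the gene and both flanks the same contrast gave 22 genes for K215/216A and not wild type (5.15% of all genes), 0 the other way round (1.32%), 12 for K215/216A and not K215/216R (3.28%) and 0 the other way round (1.43%). K215/216R had 3 genes that wild type lacked (1.40%) and wild type had 0 that K215/216R lacked (0.716%). Genes with a high mean fold among the 22 included RPL36A, RPP0, RPL3, RPL11B, RPL12A, RPS26B, RPS21A, RPS8B and RPL9B. For RPL36A the folds of 2.80 and 2.81 belonged to a peak of 1159 bp whose summit lay 1408 bp behind the gene, so that 50 bp of it fell in the window. RPP0 (YLR340W, chrXII:805887-806825, plus strand), the scaffold of the stalk, had downstream folds of 1.77 and 1.59 for K215/216A and no peak in the other 4 libraries. The peak covered 182 and 185 of the 500 bp. RPL11B, for a protein that binds the ribosomal 5S RNA as part of the large subunit, had 1.52 and 1.64 with 410 bp covered in both K215/216A libraries and 0 bp in the others. For these genes the K215/216A libraries stood alone.

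RPL3 and RPS21A had a downstream peak in all 4 mutant libraries but in no wild type one. RPL3 had 417 and 414 bp covered for K215/216A and 136 and 257 bp for K215/216R. RPS21A had 366 and 364 bp for K215/216A and 197 and 202 bp for K215/216R. K215/216R was the lower mutant at both genes. RPS26B and RPS8B also had a peak in K215/216R replicate 2, and RPL9B had 49 bp covered in both K215/216A libraries alone. Among the 12 genes called in K215/216A and in neither K215/216R library, the 10 with the highest mean fold were RPL36A, RPP0, RPL11B, RPL22A, RPL9B, RPL22B, RPL31A, RPL6A, RPS2 and RPS18B. RPL31A, whose protein sits by the exit tunnel, had 248 and 353 bp covered downstream, and RPS2, for a protein at the mRNA entry, had 207 and 174 bp. Neither had a peak in wild type or K215/216R. RPL22A differed from these in having 87 bp covered in wild type replicate 2.

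Both subunits were above all genes downstream in K215/216A, and the large subunit was above them in the other strains too. Of 56 small-subunit genes 10 were called downstream in wild type, 27 for K215/216A and 13 for K215/216R (17.9%, 48.2% and 23.2%, against 22.6%, 33.3% and 29.6% of all genes). Of 81 large-subunit genes the numbers were 23, 49 and 34 (28.4%, 60.5% and 42%). The share of downstream bases under a peak was 10.2% ± 6.24 (SD, n = 2) in wild type, 28.2% ± 1.66 for K215/216A and 15.5% ± 7.77 for K215/216R for the small subunit. It was 16.5% ± 3.78, 32.4% ± 1.03 and 21.2% ± 5.96 for the large subunit. The large subunit had the higher mean in each strain, and in wild type and K215/216R the ranges of both subunits overlapped.

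The 5 stalk genes had no peak upstream or inside the gene in any library. Downstream, RPP1A and RPP1B were called in wild type, RPP0, RPP1A, RPP1B and RPP2A in K215/216A, and RPP1A and RPP2A in K215/216R. RPP2B had no peak at all. RPP1A converges on RPL13A at a distance of 413 bp, so both genes share the peak between them, with folds of 1.39 and 1.41 for wild type, 1.52 and 1.55 for K215/216A, and 1.23 and 1.3 for K215/216R. Such sharing concerns 10 pairs of neighbouring ribosomal protein genes (18 genes) whose windows overlap. RPS14B and RPS22A share their downstream peak in K215/216A in the same way, and the peak of K215/216A behind RPS9A is also the one ahead of RPL21B.

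The paralogue pairs were sorted by their downstream calls. In wild type both genes were called downstream in 5 of 59 pairs, the A gene alone in 10, the B gene alone in 8 and neither in 36. In K215/216A the numbers were 18, 15, 13 and 13, and in K215/216R 8, 14, 8 and 29. Upstream, no pair had both genes called in any strain. Calls were few there, at 3.39%, 5.08% and 1.69% of A genes in wild type, K215/216A and K215/216R. For B genes the upstream shares were 0%, 8.47% and 5.08%. Taken by name, A genes were called downstream 15, 33 and 22 times of 59 for wild type, K215/216A and K215/216R (25.4%, 55.9% and 37.3%). B genes were called downstream 13, 31 and 16 times (22.0%, 52.5% and 27.1%). Whether the genes of a pair were more or less alike than unrelated genes with these shares was not tested. Genes with and without a paralogue were called in this window at 23.7% of 118 and 26.3% of 19 for wild type, 54.2% and 63.2% for K215/216A, and 32.2% and 47.4% for K215/216R.

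In 7 pairs one gene was called over the gene and flanks in both libraries of all 3 strains while the other had no peak in any library. The gene with the peaks came first in RPL14B and RPL14A, RPL20B and RPL20A, RPL27A and RPL27B, RPL42A and RPL42B, RPS0A and RPS0B, RPS11A and RPS11B, and RPS24A and RPS24B. In all 7 the peaks of all 6 libraries, or of 5 of them for RPS0A, included one in the downstream window. RPL20B had downstream folds of 1.85 and 1.65 for wild type, 1.67 and 1.54 for K215/216A, and 1.47 and 1.65 for K215/216R. RPS11A had 133 and 295 bp covered downstream in wild type, 500 and 485 bp for K215/216A, and 295 and 300 bp for K215/216R. RPL42A was the most even, at 195 and 195 bp, 203 and 233 bp, and 196 and 201 bp. The proteins of a paralogue pair are identical or nearly so, while the genes next to them differ. Among all ribosomal protein genes, 23.4% had a peak over the gene and flanks in all 6 libraries, and 23.4% had none in any library. Pairs of unrelated genes with these shares would also include some of this kind. Whether 7 pairs differs from the number they would give was not tested.

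**Figure D5:**
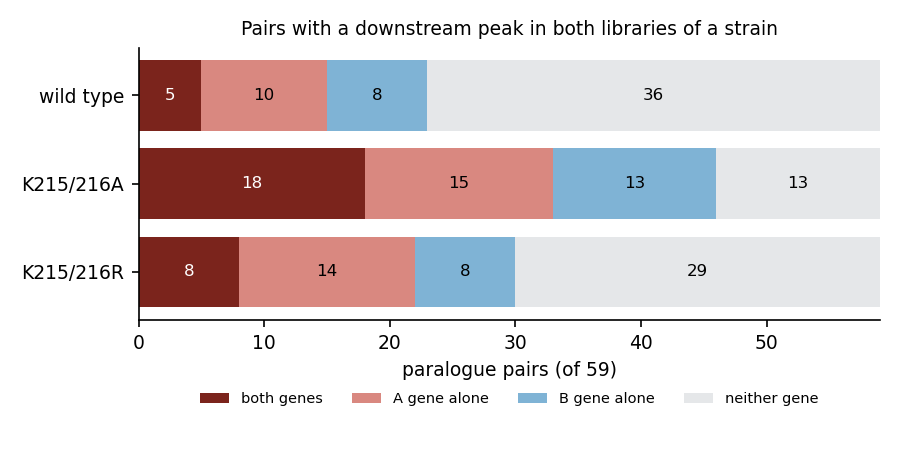
Number of paralogue pairs (horizontal axis, of 59) in which both genes, the A gene alone, the B gene alone or neither gene had a downstream peak in both libraries of a strain. K215/216A has 18 pairs with both genes, against 5 for wild type and 8 for K215/216R.

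No peak in any library was found over the gene and flanks at 32 of 137 genes (23.4%), against 12.7% of all genes, and a peak in all 6 libraries at 32 genes (23.4%), against 43.3%. The 10 genes with the longest windows among those without a peak were RPL7A, RPS0B, RPL16B, RPL20A, RPS13, RPS11B, RPS7B, RPL16A, RPS18A and RPS22B. Of the 7 pairs above, RPL20A, RPS0B and RPS11B are in this list. RPL16A and RPL16B are a pair in which neither gene had a peak.

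Genes that serve the ribosome without being part of it did not share the scarcity upstream to the same degree. Upstream peaks were called in wild type, K215/216A and K215/216R at 20, 26 and 24 of 92 ribosome biogenesis genes, at 7, 11 and 7 of 29 regulators of ribosomal protein genes, and at 6, 14 and 5 of 42 translation factors. They were called at 4, 4 and 4 of 27 genes for ribosomal protein assembly and ribosome-bound chaperones, and at 16, 28 and 22 of 67 genes for mitochondrial ribosomal proteins. These shares were above those of the cytosolic ribosomal protein genes in each strain, and the differences were not tested. All 5 lists were also below the 28.3%, 43.2% and 33.5% of all genes, but by unlike amounts. Translation factors had 14.3%, 33.3% and 11.9%, and assembly genes 14.8% in each strain. Mitochondrial ribosomal protein genes had 23.9%, 41.8% and 32.8%, near all genes in both mutants. Their upstream bases under a peak were 15.9%, 25.5% and 18.4%, against 16.0%, 22.8% and 17.5% for all genes, so they were not lower in the mutants by that measure. Among the regulators, DOT6, a repressor of ribosome biogenesis genes, had upstream folds of 1.82 ± 0.0411 (SD, n = 2) in wild type, 2.26 ± 0.270 for K215/216A and 2.26 ± 0.369 for K215/216R. CKB2, a subunit of casein kinase, also had upstream peaks in all 6 libraries. MRP4, for a mitochondrial ribosomal protein, had 2.59 ± 0.430, 2.63 ± 0.384 and 2.37 ± 0.141. Upstream peaks in all 6 libraries were also found at the biogenesis genes CBF5, PWP2 and ENP2, at the translation factor genes HEF3, SUI2 and ANB1, at MAP1, RKM5 and EGD2, and at the mitochondrial genes MRPS12 and RSM26.

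Downstream the same lists lay on either side of the cytosolic ribosomal protein genes in wild type and K215/216R. Calls in wild type, K215/216A and K215/216R came to 20, 27 and 28 of 92 biogenesis genes, 4, 8 and 9 of 29 regulators, and 7, 17 and 12 of 42 translation factors. There were 7, 9 and 11 of 27 assembly genes and 15, 28 and 26 of 67 mitochondrial ribosomal protein genes. The shares of all genes were 22.6%, 33.3% and 29.6%. None of these lists reached the 55.5% that the cytosolic ribosomal protein genes had in K215/216A.

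The total length under peaks over the gene and flanks was compared between strains for the 6 genes that led the upstream ranking, in 4 comparisons each. RPS3 had 91 and 122 bp for wild type, 732 and 834 bp for K215/216A, and 20 and 495 bp for K215/216R. The K215/216A libraries were the highest and the K215/216R libraries lay on either side of wild type. K215/216A exceeded wild type by 676 bp, with 783 ± 72.1 against 106 ± 21.9 (SD, n = 2; two-sided exact permutation p 0.333, the smallest that 2 against 2 libraries can give, adjusted p 0.444 over 24 tests). RPS9A had 400 ± 2.83 bp for K215/216A, 198 ± 12 for K215/216R and 153 ± 0 for wild type. Both mutants together exceeded wild type there by 146 bp (exact permutation p 0.133, adjusted p 0.444, with 0.0667 the smallest possible). For RPL43B, RPL14B, RPL15B and RPL24A K215/216A also exceeded wild type, by 516, 315, 227 and 114 bp (exact permutation p 0.333 each, adjusted p 0.444). These genes entered the ranking because they were called upstream in a mutant, and they were not called upstream in wild type. The compared length includes the upstream window, so the choice of genes favoured an excess over wild type. None of the 24 tests passed a threshold of 0.05 after adjustment, and none could have, since the smallest possible p is 0.333 between single strains and 0.0667 for both mutants against wild type.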

How the data were processed

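ChIP-seq peak lists of tagged Cse4 from 3 strains were used, 2 immunoprecipitated libraries each, and the 6 input libraries were left aside. Aligner, peak caller and interval tool were Bowtie 1.0.0, MACS2 2.1.1.20160226 and bedtools 2.25.0, on the sacCer3 build, per the submitters' processing notes. Which control the caller used and how reads were filtered is not given in the sources used here. Lysates were sonicated to fragments of 100 bp on average, per the labels' protocols. The authors deposited one list per library. Its deposited fold is a ratio, summit pileup over local background. Its deposited −log10 p and −log10 q describe the summit, with a lowest −log10 q of 1.30, and its deposited score is the −log10 q multiplied by 10 without decimals. The last deposited column is the summit's distance from the peak start. The authors' merged list of each strain holds joined peaks carrying the mean fold (100% of regions within 0.001) and served as an alternative.

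Genes came from the RefSeq annotation of R64, from start codon to stop codon with introns included, and strand from the systematic name. Windows were the gene, the 500 bp before it and the 500 bp after it, and a call needed 1 bp of overlap in both libraries of a strain. Pileup and local background were solved from fold and p under a Poisson tail, giving a whole pileup within 0.001 for 99.6% to 99.8% of peaks. Depth was taken as the smallest local background in a library, and each pileup was thinned binomially to the shallowest library. The solving of pileups and the finding of peaks in windows were tested on simulated data. The depth estimate and the thinning were not. Counts are set beside those of all 6002 genes, with no test over the list. Covered bases of single genes were compared by two-sided exact permutation, and the 24 p-values were adjusted by the Benjamini-Hochberg method. Python 3.11.15, numpy 2.4.6, pandas 2.3.3 and scipy 1.17.1 were used.

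Named genes were, by rule, up to 12 with an upstream peak in both libraries of a strain, up to 8 with a summit in the gene, up to 8 with a downstream peak (each by number of libraries, then mean fold), and up to 10 per pair of strains called in one and in neither library of the other. They also include pairs with one gene called throughout and the other never, up to 10 genes without a peak by window length, and 3 per comparison list by upstream peaks. Some genes that the rule picks are not reported here. Other names were chosen after their values were seen. The genes and the lists were chosen with earlier results of these data known. The comparison lists come from general knowledge, and 27 of 28 assembly genes and all genes of the other lists were matched to the annotation. Alternatives were the summit in the window, 100 bp of overlap, flanks of 250 and 1000 bp, a −log10 q of at least 5, equal list length, thinning, either library, the merged lists and leaving out each replicate.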

Additional observations from a re-analysis of the deposited data

How the results depend on the processing

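The counts of ribosomal protein genes moved with the settings, while their place relative to all genes held for most windows. Upstream, inside the gene and over gene and flanks, the share of ribosomal protein genes stayed below that of all genes in every setting run, in all 3 strains. Over gene and flanks in K215/216A the margin was small in some settings, at 0.700 to 0.975 times the share of all genes. With lists of one length it was 47.4% against 48.7%. In wild type that window gave 0.308 to 0.694 times, and in K215/216R 0.449 to 0.816 times. Downstream the share of ribosomal protein genes stayed above that of all genes in K215/216A, at 1.41 to 1.96 times, and in K215/216R, at 1.03 to 1.47 times. In wild type it ranged from 0.717 to 1.28 times, so no direction is given there.

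Over gene and flanks, wild type moved from 37 genes to 18 with flanks of 250 bp, 59 with 1000 bp, 17 at a −log10 q of at least 5 and 61 with a peak in either library, and K215/216R from 50 to 30, 77 and 29 under the first 3 of these. Upstream, wild type moved from 3 to 1, 13, 1 and 6 under the same 4 settings, K215/216A from 11 to 3, 33, 6 and 23, and K215/216R from 5 to 1, 24, 1 and 13. With lists cut to one length the upstream counts were 6 in K215/216A and 3 in K215/216R; thinned they were 7 and 3, and 2 in K215/216R with at least 100 bp covered. Inside the gene, wild type moved from 3 to 1 by summit, 1 with at least 100 bp covered, 1 at the stricter q and 7 with either library. K215/216R moved from 5 to 2, 2, 2 and 9 under these settings, to 2 with lists of one length and to 0 when thinned. K215/216A moved from 16 to 6 by summit, 8 at the stricter q, 8 with lists of one length, 7 when thinned and 37 with either library. Downstream, wild type moved from 33 to 16 with flanks of 250 bp, 50 with 1000 bp, 15 at the stricter q and 59 with either library, and K215/216R from 47 to 30 with 250 bp, 26 at the stricter q and 72 with either library. Downstream in K215/216A no setting moved the count of 76 by over 1.5 times. The cause of these moves was not tested, beyond the fewer or more bases and peaks that each setting admits.

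With 1 library per strain the counts were 40 to 58 over gene and flanks in wild type. Upstream they were 3 to 6, 16 to 18 and 8 to 10 in wild type, K215/216A and K215/216R. Inside the gene they were 4 to 6 in wild type and 25 to 28 in K215/216A. Downstream they were 37 to 55 in wild type and 48 to 71 in K215/216R. Genes with a downstream peak in K215/216A that wild type lacked numbered 22, 14 after thinning and 25 to 42 without one library; those that K215/216R lacked numbered 13, and 13 to 29 without one library. These last alternatives were chosen after seeing the data.

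For covered bases, the difference reversed for RPL24A, both mutants minus wild type, from 33.0 to −16.0 bp with flanks of 1000 bp. RPL43B, K215/216R minus K215/216A, went from −258 to 25 bp at equal list length. RPL15B, K215/216R minus K215/216A, went from 43.0 to −234 bp at the stricter q, to −40.5 bp at equal list length, and from −28.0 to 114 bp without one replicate. RPS3, K215/216R minus wild type, ranged from −71.0 to 373 bp without one replicate. With the replicate block (labels permuted within a replicate number) RPS3 kept its excess of 676 bp in K215/216A over wild type, with an exact permutation p of 0.5, the smallest that block allows. No result passed its threshold with or without the block, so it changed no call. The labels do not say that a replicate number marks a shared culture or day.

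With 2 libraries a strain, the smallest p of every single-gene test is above the threshold. Thinned lists hold only peaks that the full data gave, so thinning cannot restore peaks that a shallow library missed. A gene without a peak is not shown to lack Cse4.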
